A study of Homo sapiens with 61 samples.

Results

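Neurons of the LZK knockout line were compared with neurons of the wild type line, both without drug. The comparison rests on 8 of the 61 sequenced cultures, chosen by their labels as the 4 untreated LZK knockout (LZK KO) and the 4 untreated wild type (WT) cultures. It covers the 18235 genes with enough counts to be tested. The neurons were made from the established cell line WTC11, induced pluripotent stem cells of human origin, in which a doxycycline-controlled cassette drives the transcription factor NGN2 and turns the cells into neurons, which the labels call "cortical".

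The study holds a separate experiment with guide RNAs and, in the one described here, 32 cultures of 4 WTC11 lines that all carry the NGN2 cassette. The lines were WT, DLK KO, LZK KO and the double KO of DLK and LZK, each with 4 cultures given the vehicle DMSO (labelled untreated) and 4 given 5 nM vincristine, a drug that takes microtubules apart, for 16 hours from day 14. Each genotype is 1 cell line by the series' own description, so an effect of the knockout and any other difference between the LZK KO line and the WT line cannot be told apart. No label says whether replicates came from separate differentiations, and p-values measure only the spread between these cultures.

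LZK (leucine zipper kinase, gene MAP3K13) and its close relative DLK (dual leucine zipper kinase, MAP3K12) are kinases of the mixed lineage family that sit at the top of a stress pathway in axons. When an axon is injured or its microtubules are disturbed, they act through the kinases MKK4 and MKK7 on JNK, and JNK acts on transcription factors of the AP-1 and ATF families, among them JUN and ATF2. In neurons the pathway is known for both regeneration and death after injury. The comparison of untreated lines asks what the LZK KO line expressed before any drug was given.

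The targeted gene was lower in the counts of the knockout line. MAP3K13 (ENSG00000073803.13, GRCh38 chromosome 3, 185282941 to 185489097) stood at 98.9, 102, 99.1 and 96.8 CPM (the unit of edgeR's cpm function, counts scaled to a common library total) in the 4 WT libraries and at 33.0, 34.2, 30.4 and 30.1 CPM in the 4 LZK KO libraries. All LZK KO libraries lay below all WT libraries, at 32.2% of the WT mean, a log2 fold change of -1.63 ± 0.06 (SE of the fit, n = 4 against 4) with an adjusted p of 5.07e-22 by the quasi-likelihood test of edgeR. The remaining counts say nothing about which part of the gene the remaining RNA holds. In DLK KO cultures the gene stood at 106 ± 3.43 CPM (SD, n = 4).

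MAP3K12, the gene of the other kinase, stood at 89.8, 94.3, 90.2 and 89.7 CPM in WT and at 74.4, 74.9, 82.2 and 73.0 CPM in LZK KO. The groups did not overlap, and the log2 fold change was -0.26 ± 0.10 with an adjusted p of 0.0447 by edgeR. That call is weak: it was lost in 10 of 17 alternative settings, among them 7 of the 8 fits without 1 library. The other mixed lineage kinases were measured too. Of 7 genes in that list, 0 were called higher and 3 lower, beside 17.1% and 16.8% of all genes tested. The third lower gene was MAP3K20 (ZAK), at 2.62 ± 0.559 CPM in WT and 1.47 ± 0.383 in LZK KO. Its call was lost in 3 of 17 alternative settings, and the list then held 1 lower gene without LZK KO replicate 2 or without WT replicate 4.

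Across all genes the difference between the lines was broad and even in direction. Of 18235 genes, 6188 were called at an adjusted p under 0.05, which is 33.9% of those tested, with 3120 higher in LZK KO (17.1%) and 3068 lower (16.8%). Those shares are the background for each count of list members below. At least 2-fold changes made up 1743 of the calls, 9.56% of the genes tested, with 831 higher and 912 lower. In 5620 genes, 30.8%, the 4 libraries of one line lay wholly above or below the 4 of the other. The median log2 fold change was 0.01, and its quartiles were -0.26 and 0.27.

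The 8 libraries held 8.43 to 14.6 M counts (M, mega). Each library correlated with its own group at a mean r of 0.983 to 0.990 and with the other group at 0.959 to 0.963 across genes. Several library measures moved with the line. The share of small non-coding RNA was 2.70% to 3.46% in LZK KO and 1.78% to 2.67% in WT, and mitochondrial transcripts took 5.01% to 6.86% in LZK KO and 7.20% to 8.79% in WT. Genes with at least 1 count numbered 25818 to 28922 in LZK KO and 28064, 34329, 36716 and 37952 in WT libraries 1 to 4, so WT 2 to 4 held counts in more genes. The part of these measures in the results was not tested. With WT 1 as the only WT library, 2731 genes were called, with 3 fewer libraries in the fit.

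**Figure D1:**
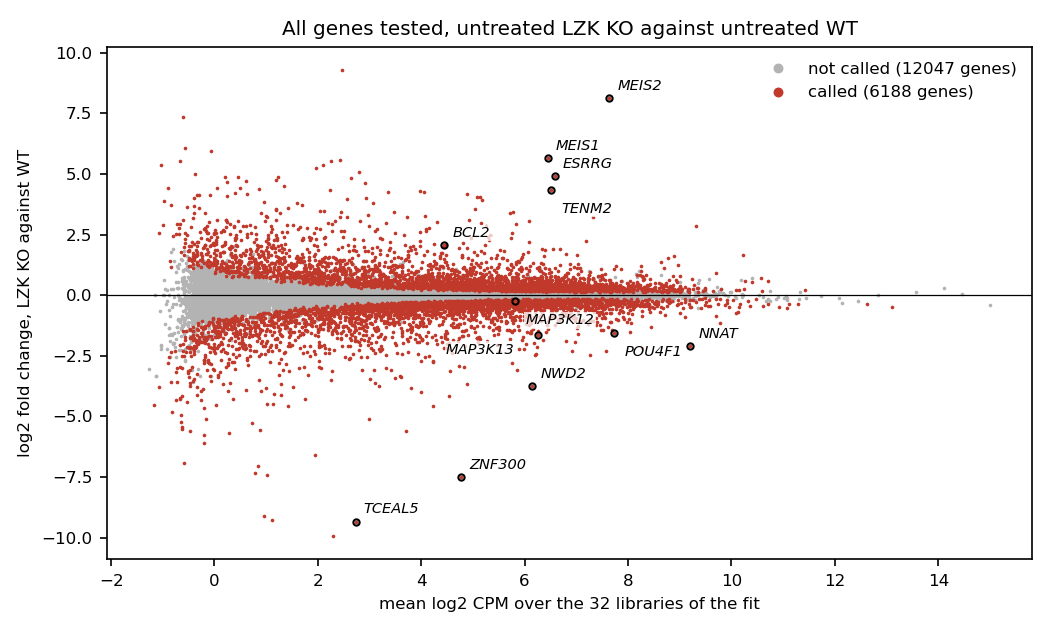
Log2 fold change of LZK KO against WT, both untreated, for each of the 18235 genes tested, against its mean level, with 12 genes of the text labelled. Calls lie on both sides of 0 in near equal number (3120 higher, 3068 lower), and MEIS2 lies apart from genes of its level.

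The genes that differed most were transcription factors of regional identity, which tell a neural cell where along the body axis or in which nucleus it belongs. The 15 highest and 15 lowest called genes with no overlap between the groups were taken for a closer description. Their mean level had to be at least 1 on the log2 CPM scale, over all 32 libraries of the experiment. The other groups thus took part in the choice. CHL1, EVX2 and FAM129A had mean levels below that minimum in both untreated WT and untreated LZK KO, and passed only through other groups. A promoter sequence was matched in RefSeq for 9 of the 15 highest and 11 of the 15 lowest. The 250 bases before the start of the 2 highest and the 2 lowest of these whose windows meet no annotated exon are shown, so that promoters of genes low in WT and of genes low in LZK KO can be set side by side. The start is that of RefSeq, which for MEIS1 lies inside the span that GENCODE gives the gene. Each is written 5′ to 3′ on the strand of its gene, from RefSeq on GRCh38.p14, with every CpG in capitals. They are MEIS1 (chr2:66434875-66435124, plus strand, 16 CpG) and SP8 (chr7:20786887-20787136, minus strand, 33 CpG), both higher in LZK KO, and SYT10 (chr12:33439820-33440069, minus strand, 29 CpG) and GALR1 (chr18:77249598-77249847, plus strand, 35 CpG), both lower.
MEIS1: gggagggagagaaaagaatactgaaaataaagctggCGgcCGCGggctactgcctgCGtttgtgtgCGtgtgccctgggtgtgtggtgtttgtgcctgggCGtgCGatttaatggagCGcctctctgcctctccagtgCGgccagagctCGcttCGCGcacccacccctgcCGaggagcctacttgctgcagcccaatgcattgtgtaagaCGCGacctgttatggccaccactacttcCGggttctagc
SP8: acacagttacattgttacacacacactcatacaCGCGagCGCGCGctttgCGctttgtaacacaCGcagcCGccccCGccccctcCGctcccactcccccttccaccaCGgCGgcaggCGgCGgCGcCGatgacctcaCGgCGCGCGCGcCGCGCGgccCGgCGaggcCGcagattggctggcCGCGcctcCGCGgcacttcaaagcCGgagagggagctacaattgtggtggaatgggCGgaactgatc
SYT10: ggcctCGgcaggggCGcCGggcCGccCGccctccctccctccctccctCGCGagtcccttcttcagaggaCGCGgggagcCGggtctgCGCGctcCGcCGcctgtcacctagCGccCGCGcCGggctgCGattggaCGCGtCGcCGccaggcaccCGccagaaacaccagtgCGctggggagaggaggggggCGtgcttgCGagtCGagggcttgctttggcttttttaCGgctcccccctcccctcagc
GALR1: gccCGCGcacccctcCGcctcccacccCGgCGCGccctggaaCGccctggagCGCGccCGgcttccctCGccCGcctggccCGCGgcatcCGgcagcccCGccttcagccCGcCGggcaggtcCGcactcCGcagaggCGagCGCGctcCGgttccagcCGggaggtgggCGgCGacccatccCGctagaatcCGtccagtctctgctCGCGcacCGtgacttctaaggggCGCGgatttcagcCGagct

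Windows with at least 10 CpG made up 7 of the 9 highest and 9 of the 11 lowest, beside 51.9% of 27305 RefSeq promoter windows of the same length. The hexamer TGACAG, a core that MEIS and related homeodomain proteins recognise, was found on either strand in 1 of 9 and 3 of 11, beside 13.1% of all windows. The AP-1 sequence TGANTCA was found in 0 of 9 and in 1 of 11, that of ZNF138, beside 6.60%, and the ATF sequence TGACGTCA in 0 of both, beside 1.77%. A match is a description of these letters in these windows and no evidence of binding.

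MEIS2 (ENSG00000134138.19, chromosome 15, 36889204 to 37101299), a homeobox factor that partners HOX and PBX proteins in hindbrain, striatal and limb development, stood at 2.10, 2.33, 2.39 and 2.88 CPM in WT and at 658, 669, 706 and 666 CPM in LZK KO. No library came near those of the other line. The log2 fold change was 8.12 ± 0.12, and its adjusted p of 1.6e-34 by edgeR was the smallest of all genes. Its relative MEIS1 (chromosome 2, 66433452 to 66573869) stood at 4.01, 4.66, 4.42 and 4.67 CPM in WT and at 223, 232, 215 and 224 in LZK KO, a log2 fold change of 5.65 ± 0.09. AC018563.1, a transcript that lies beside MEIS2 at chromosome 15, 36876379 to 36887035, had 1 count over the 4 WT libraries and 765 over the 4 LZK KO libraries, a ratio of 956 with a 95% counting interval of 171 to 37800 that covers counting error only.

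Other regulators were among the 15 highest. ESRRG, an orphan nuclear receptor of the oestrogen-related family, stood at 7.36, 7.36, 9.62 and 8.54 CPM in WT and 245, 303, 195 and 260 in LZK KO (log2 fold change 4.92 ± 0.11). NR2F1 and NR2F2, the COUP-TF receptors that pattern the cortex along its length, went from 0.625 ± 0.149 to 18.0 ± 3.08 CPM and from 0.822 ± 0.234 to 20.6 ± 1.56 CPM. SP8, a zinc finger factor of forebrain patterning, went from 0.359 ± 0.147 to 15.2 ± 1.59. All 3 stood under 2 CPM in every WT library and above 10 CPM in every LZK KO library. HES1, a target of Notch signalling that keeps progenitors from becoming neurons, rose from 0.0944 ± 0.109 to 4.64 ± 1.03 CPM, and the homeobox gene EVX2 had 3 counts in WT and 64 in LZK KO, a ratio of 26.7 (95% counting interval 8.72 to 133).

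Others of the highest genes were of different kinds. TENM2, a teneurin that links synaptic partners across the cleft, rose from 7.74 ± 0.724 to 155 ± 16.8 CPM, a log2 fold change of 4.33 ± 0.09. The histone genes HIST1H3B and HIST1H3G went from 0.254 ± 0.108 to 10.4 ± 0.854 and from 0.248 ± 0.138 to 8.19 ± 1.58 CPM, with reads that near-identical histone copies could share. LHX5-AS1, which overlaps the end of LHX5 on the other strand, and AL592183.1, on an unplaced scaffold, were also among the 15. Since the strand setting of the counting is not given in the sources used here, reads of LHX5-AS1 and of LHX5 cannot be told apart.

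**Figure D2:**
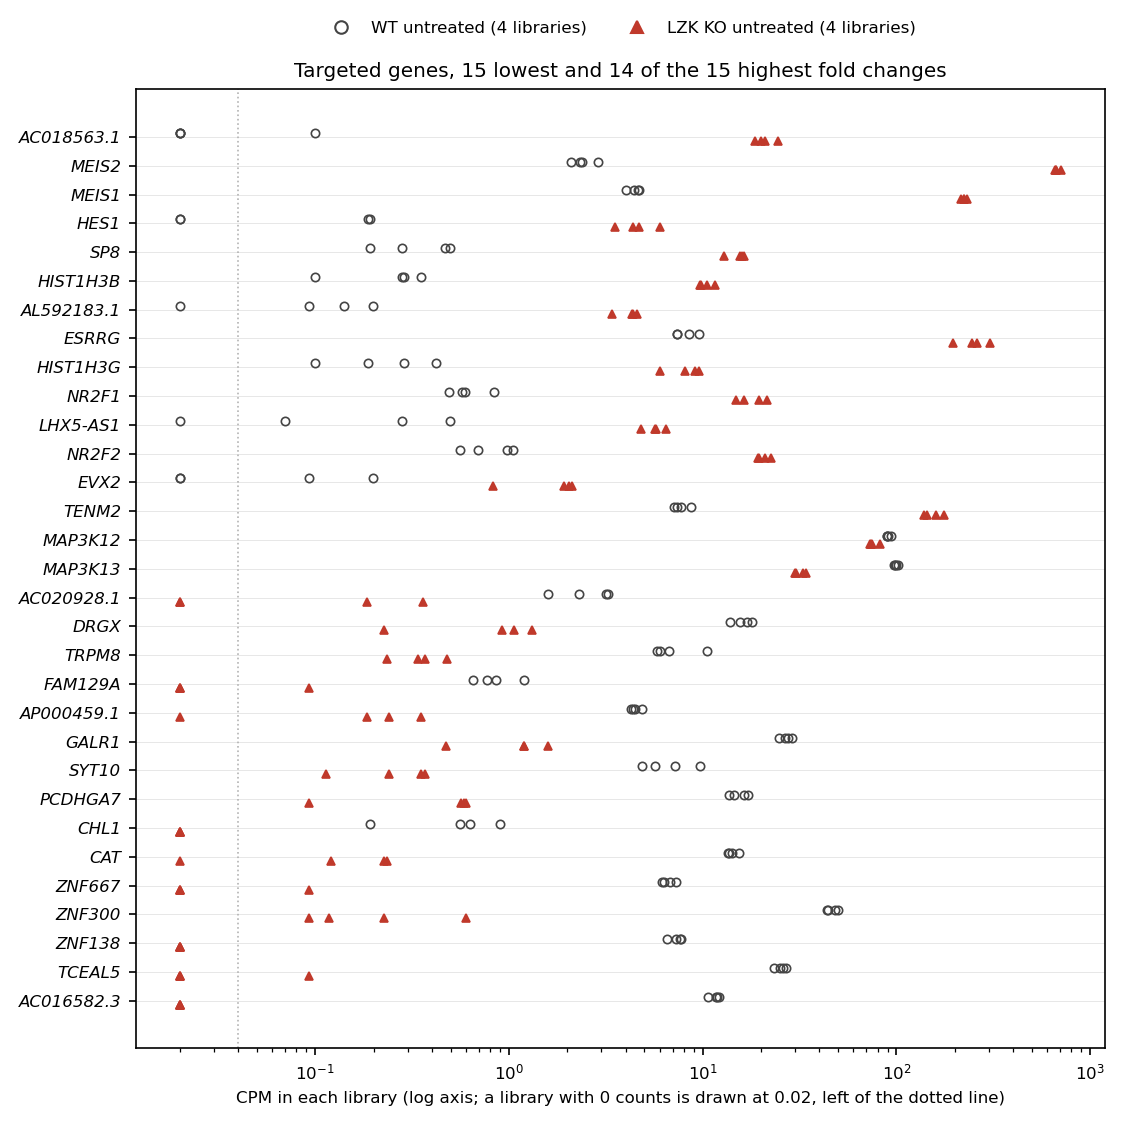
CPM on a log axis of the targeted genes, the 15 lowest and 14 of the 15 highest genes in each of the 4 WT and 4 LZK KO untreated libraries, 1 point per library, with libraries that hold 0 counts drawn at 0.02 left of the dotted line. The points of the 2 lines lie apart in every gene shown, with MEIS2 near 2 CPM in WT and above 600 in LZK KO.

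Among the lowest genes were several that the WT line expressed and the LZK KO line had at or next to 0. The zinc finger gene ZNF300 (chromosome 5, 150894392 to 150904983) stood at 48.5, 44.3, 49.7 and 43.9 CPM in WT and at 0.227, 0.601, 0.0925 and 0.118 in LZK KO, a log2 fold change of -7.49 ± 0.22. TCEAL5 (chromosome X, 103273691 to 103276872), of a family of brain-expressed proteins related to elongation factor TFIIS, stood at 27.1, 25.9, 25.2 and 23.4 CPM in WT and had 1 count over the 4 LZK KO libraries (ratio 924, 95% counting interval 166 to 36540). CAT (chromosome 11, 34438925 to 34472062), the catalase that breaks down hydrogen peroxide, stood at 14.2, 15.5, 13.6 and 13.5 CPM in WT and at 0.227, 0.120, 0 and 0.235 in LZK KO.

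At most 3 counts over the LZK KO libraries were also found for other genes of this set. AC016582.3, a transcribed pseudogene on chromosome 19, was at 11.6 ± 0.659 CPM in WT and at 0 in all LZK KO libraries, at least 141-fold lower against a floor of 3 counts over the group. ZNF138 was at 7.30 ± 0.552 CPM in WT and at 0 in LZK KO, at least 87.8-fold lower against the same floor. ZNF667 had 300 counts in WT and 1 in LZK KO (ratio 240, 95% counting interval 42.8 to 9514). The gene FAM129A had 39 and 1, a ratio of 31.2 (5.28 to 1264). CHL1, a cell adhesion molecule of axons, was low in WT too, at 0.191, 0.559, 0.632 and 0.894 CPM, against 0 in LZK KO. It was at least 6.94-fold lower, and its call was lost with WT 1 as the only WT library.

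The rest of the lowest 15 kept low levels in LZK KO. GALR1, a receptor of the neuropeptide galanin, stood at 27.5, 24.9, 26.6 and 29.0 CPM in WT and at 1.59, 1.20, 1.20 and 0.471 in LZK KO (log2 fold change -4.57 ± 0.18). DRGX, a homeobox factor of dorsal root ganglion neurons, fell from 16.0 ± 1.80 to 0.884 ± 0.468 CPM. TRPM8, the cold-sensing channel of the same ganglia, fell from 7.27 ± 2.21 to 0.357 ± 0.101, and SYT10, a synaptotagmin that controls release of growth factor vesicles, from 6.84 ± 2.09 to 0.269 ± 0.119. PCDHGA7, one of the clustered protocadherins whose shared exons make counts uncertain, fell from 15.4 ± 1.61 to 0.463 ± 0.247. The long non-coding RNA genes AP000459.1 and AC020928.1 completed the set at 4.50 ± 0.249 and 2.57 ± 0.786 CPM in WT and 0.195 ± 0.147 and 0.137 ± 0.173 in LZK KO.

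The smallest p-values picked out well expressed genes. MAB21L1, a developmental gene of eye and brain, rose from 57.3 ± 3.06 to 268 ± 13.9 CPM (log2 fold change 2.22 ± 0.06). NWD2 fell from 95 ± 9.51 to 7.03 ± 1.16, DDAH1, an enzyme that clears inhibitors of nitric oxide synthase, from 207 ± 13.6 to 54.1 ± 0.797, the protocadherin PCDH10 from 340 ± 13.5 to 68.3 ± 5.13, and the synaptic vesicle protein SV2B from 184 ± 4.85 to 42.0 ± 1.85. In each of these genes the lines did not overlap.

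The samples were neurons in both lines, by their markers. The 8 neuron markers, MAP2 and DCX among them, summed to 4175 to 4330 CPM in WT and 4451 to 5087 in LZK KO. That sum was dominated by MAP2 (2337 and 2286 CPM, not called) and DCX (1295 and 1925 CPM). DCX was the only 1 of the 8 called higher, and 2 were called lower, SYN1 and SLC17A6. Defining markers of pluripotent, glial, mesenchymal, endothelial and epithelial cells were at or near 0 or low, whereas progenitor markers such as NES were not and are given with the progenitor genes. POU5F1 and NANOG, which define pluripotent cells, stood at 0.292 ± 0.163 and 0.222 ± 0.167 CPM in WT and 0.195 ± 0.148 and 0.0231 ± 0.0463 in LZK KO. The astrocyte gene GFAP was at 0 in all LZK KO libraries, LUM had at most 3 counts in any library, and so had SOX10, TDGF1 and KRT19. The summed markers of 8 mesenchymal and endothelial genes came to 1.53 to 4.57 CPM in WT and 0.722 to 1.39 in LZK KO, and those of 4 epithelial genes to 4.19 to 5.37 and 1.25 to 2.31. Fewer cells of a type and less RNA of it per cell cannot be told apart in such bulk samples.

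Markers went against the label "cortical" in part, in both lines. TBR1, which defines deep-layer cortical neurons, stood at 0.570 CPM in WT and 0.565 in LZK KO, while POU4F1, a factor of sensory neurons, stood at 435 ± 14.8 CPM in WT and 147 ± 13.5 in LZK KO. The 7 peripheral sensory markers summed to 446 to 483 CPM in WT and 135 to 169 in LZK KO, with 5 of them lower and 1 higher. In the longer list of peripheral and hindbrain markers, 6 of 17 tested were higher and 8 lower, with a median log2 fold change of -1.12 beside 0.01 over all genes. That median was -0.07 with WT 1 as the only WT library.

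The members of that list split by what they mark. Several genes of sensory identity fell, among them DRGX, TLX3 (3.26 ± 0.578 to 0.203 ± 0.198 CPM) and POU4F1 (log2 fold change -1.56). The 3 tested HOX genes of the list, HOXA2, HOXB2 and HOXB3, rose, and HOXB4 and HOXB5 had too few counts to be tested. HOXB3, a HOX gene of the lower hindbrain, stood at 2.01, 2.42, 2.25 and 1.59 CPM in WT and at 40.7, 35.7, 43.8 and 39.2 in LZK KO, a log2 fold change of 4.25 ± 0.14. ISL2, a LIM homeobox gene of motor and some sensory neurons, rose from 0.704 ± 0.123 to 7.73 ± 1.03, and HOXA2, also of hindbrain, from 0.0938 ± 0.132 to 1.48 ± 0.455. PIRT, a regulator of sensory channels, had 38 counts in WT and 3 in LZK KO (ratio 10.1, 95% counting interval 3.22 to 51.3).

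Genes of dividing cells and neural progenitors were higher in the LZK KO line. Of 20 tested, 16 were called higher and 3 lower, with a median log2 fold change of 2.20. MKI67, a protein of dividing nuclei, stood at 5.54, 3.82, 4.78 and 5.17 CPM in WT and at 32.1, 29.9, 37.1 and 33.4 in LZK KO, and TOP2A, a topoisomerase of mitosis, rose from 1.53 ± 0.376 to 20.9 ± 1.93. The groups did not overlap for either gene. HES5, a second Notch target, rose from 0.472 ± 0.145 to 5.12 ± 1.16, while the 3 members that fell were SOX2, NES and NEUROG2. NEUROG2 is the gene of NGN2, the factor that the cassette drives in all the lines. Whether its counts hold reads of the cassette was not tested. The summed level of the 7 progenitor and dividing cell markers, which NES dominates, was 735 to 776 CPM in WT and 518 to 676 in LZK KO. The part of dividing cells in the other results was not tested.

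Pluripotency-linked and glial lists held a few genes that rose. Of 6 tested pluripotency genes 4 were higher and 0 lower, led by LIN28A, a brake on let-7 microRNAs, from 1.88 ± 0.485 to 15.2 ± 2.73 CPM, and the DNA methyltransferase DNMT3B, from 7.07 ± 0.322 to 25.8 ± 3.41. Of 9 glial genes 5 were higher and 1 lower, S100B, which lost its call in 10 of 15 alternative settings. FABP7, of radial glia, rose from 1.59 ± 0.406 to 13.1 ± 2.63, whereas the 8 astrocyte and oligodendrocyte lineage markers summed to 1.24 to 4.57 CPM in WT and 1.53 to 2.62 in LZK KO. Of 7 tested mesenchymal and other non-neural genes, 0 were higher and 3 lower, all under 4 CPM.

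Transmitter genes moved in both directions. Of 18 excitatory markers, 6 were higher and 7 lower, beside 17.1% and 16.8% of all genes, with a median of -0.07. NEUROD2, a factor of cortical excitatory neurons, fell from 23.9 ± 1.60 to 4.39 ± 0.760 CPM, and SLC17A6, the vesicular glutamate transporter of these neurons, stood at 314, 297, 310 and 276 CPM in WT and at 150, 172, 129 and 152 in LZK KO. Of 12 genes of inhibitory and other transmitters, 4 were higher and 4 lower, beside the same shares of all genes. The GABA-synthesis gene GAD1 rose from 0.316 ± 0.283 to 2.51 ± 0.369 CPM, and the 6 inhibitory markers summed to 1.79 to 2.42 CPM in WT and 5.18 to 6.38 in LZK KO. The choline transporter SLC5A7 fell from 26.4 ± 2.70 to 10.7 ± 1.79, and the monoamine transporter SLC18A2 from 1.79 ± 0.332 to 0.194 ± 0.0589.

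Genes of neuronal signalling were more often lower. In the synaptic vesicle and release list, 6 of 30 were higher and 15 lower, with a median of -0.24. Among voltage-gated channels 6 of 33 were higher and 17 lower, with a median of -0.34. Over all genes 17.1% were higher and 16.8% lower, so the shares called higher in both lists were near that of all genes. SV2B and the neurexin NRXN3 (85.6 ± 11.9 to 27.5 ± 4.84 CPM) fell, while the vesicle proteins SV2C and SYN3 rose (20.1 ± 1.14 to 50.2 ± 5.33 CPM for SYN3). KCNQ3, a subunit of the M-current that limits firing, stood at 11.3, 11.7, 12.4 and 12.8 CPM in WT and at 133, 126, 131 and 128 in LZK KO, a log2 fold change of 3.42 ± 0.10. KCNC2, a channel of fast firing, went the other way, from 58.1, 55.4, 59.0 and 56.0 CPM to 8.07, 8.30, 7.77 and 10.0 (-2.75 ± 0.09). No library of either line overlapped the other for these 2 channels.

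Neuropeptide and granin genes followed the same balance, with 3 of 20 higher and 9 lower and a median of -0.53. The shares of all genes were 17.1% and 16.8%. TAC1, the precursor of substance P, rose from 8.39 ± 0.757 to 60.2 ± 8.44 CPM, whereas the granule proteins CHGA (255 ± 18.6 to 93.3 ± 11.5) and SCG5 (116 ± 6.78 to 41.5 ± 3.87) and the processing enzyme PCSK1 (42.5 ± 2.37 to 17.0 ± 2.58) fell.

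Axon guidance genes were more often higher than lower. Of 41 genes, 21 were higher and 11 lower, with a median of 0.31. DCC, the receptor that pulls axons toward netrin, stood at 47.3, 44.6, 48.5 and 51.0 CPM in WT and at 187, 178, 183 and 174 in LZK KO, and its ligand NTN1 rose from 1.32 ± 0.113 to 8.38 ± 1.51 CPM. Receptor and ligand were thus both higher in every LZK KO library. SEMA6A, a membrane-bound semaphorin, rose from 57.5 ± 4.31 to 182 ± 9.49, while the secreted semaphorins SEMA3E (60.7 ± 5.45 to 7.13 ± 1.84) and SEMA3D (9.78 ± 1.47 to 1.11 ± 0.328) fell.

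Adhesion molecules of the cadherin family were more often lower. Of 23 classical cadherins and non-clustered protocadherins, 4 were higher and 14 lower, beside 17.1% and 16.8% of all genes, with a median of -0.43. CDH9 and CDH12 fell (12.6 ± 2.00 to 1.24 ± 0.255 and 30.8 ± 2.29 to 6.80 ± 0.639 CPM) and PCDH19 rose (8.81 ± 1.09 to 49.7 ± 4.99). Of 16 neurotrophin genes, 9 were higher and 3 lower, led by the sorting receptor SORCS1 (17.5 ± 0.872 to 133 ± 6.87 CPM) with the neurotrophin receptors NTRK3 (160 ± 13.6 to 341 ± 24.3) and NGFR (17.3 ± 2.28 to 41.1 ± 4.18). Of 31 matrix and integrin genes, 7 were higher and 6 lower, shares near the 17.1% and 16.8% of all genes. The basement membrane genes LAMA1, COL4A1 and COL4A2 rose, COL4A2 from 12.8 ± 0.625 to 53.9 ± 10.4 CPM, and RELN, whose protein guides migrating neurons, fell from 116 ± 10.3 to 51.6 ± 4.72.

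**Figure D3:**
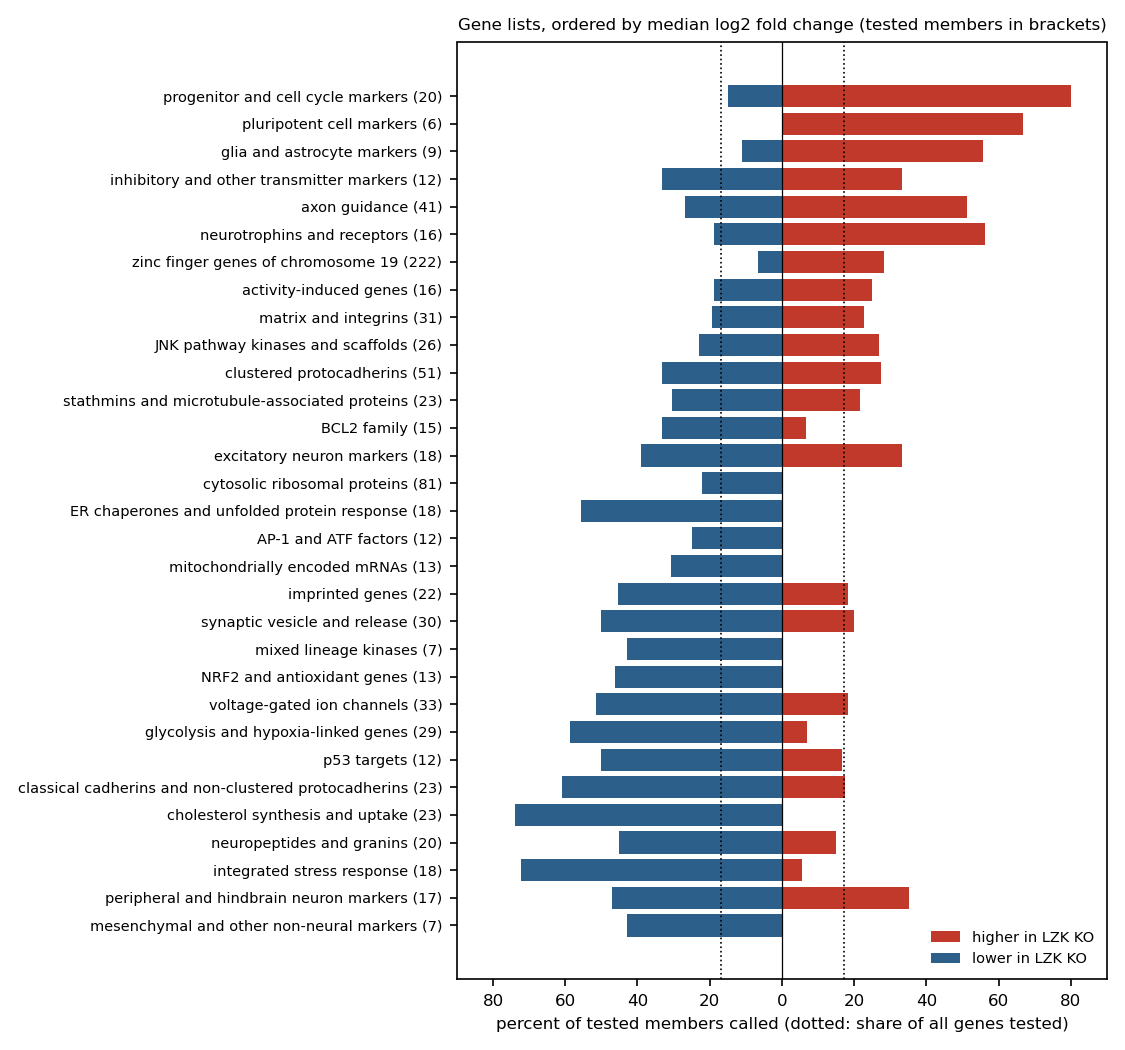
Percent of the tested members of each gene list called higher and called lower in LZK KO against WT, with dotted lines at the share of all genes tested (17.1% higher, 16.8% lower). Progenitor and cell cycle genes reach furthest to the higher side (16 of 20), and cholesterol and stress response genes to the lower side (17 of 23 and 13 of 18).

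The JNK pathway downstream of the 2 kinases showed no common direction. Of 26 kinases, scaffolds and phosphatases, 7 were higher and 6 lower, beside 17.1% and 16.8% of all genes, with a median of 0.02. MKK4 and MKK7 (MAP2K4, MAP2K7) stood at 98 and 99.2 CPM and at 40.1 and 41.5 CPM in WT and LZK KO and were not called, whereas JNK1 (MAPK8) rose from 250 to 381 CPM, a log2 fold change of 0.61. The JNK phosphatases DUSP10 (119 ± 4.87 to 63.3 ± 10.0 CPM) and DUSP16 (41.3 ± 2.07 to 22.5 ± 3.07) and the upstream kinase MAP3K5 (5.09 ± 0.621 to 2.02 ± 0.182) fell. The scaffold SH3RF1 (19.7 ± 1.22 to 31.3 ± 2.45) and the phosphatase DUSP4 (146 ± 1.65 to 229 ± 27.4) rose.

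Of 12 AP-1 and ATF factors, the end points of that pathway, 0 were higher and 3 lower, beside 16.8% of all genes called lower. CREB5, of the ATF2 family, fell from 52.9, 45.3, 47.6 and 48.2 CPM to 21.3, 23.9, 21.0 and 18.2. ATF3, a factor that injury induces, fell from 15.1, 14.9, 13.9 and 12.5 CPM to 7.73, 6.86, 6.94 and 8.36, and in both genes the lines did not overlap. The third, JDP2, had an adjusted p of 0.045 by edgeR and lost its call in 8 of 17 alternative settings, which leaves 2 of 12, a share near that of all genes. JUN stood at 140 and 116 CPM and ATF2 at 141 and 165 CPM in WT and LZK KO, with adjusted p-values of 0.129 and 0.105 by edgeR. Among 16 activity-induced genes 4 were higher and 3 lower, beside 17.1% and 16.8% of all genes. EGR1 fell from 18.6 ± 1.36 to 6.40 ± 1.01 CPM and NPTX2 from 60.2 ± 3.73 to 22.0 ± 2.86, and NR4A3 rose from 48.9 ± 3.48 to 84.1 ± 3.83.

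Genes of the integrated stress response were mostly lower. Of 18 genes of the integrated stress response, through which ATF4 raises amino acid supply and, if stress lasts, death genes, 1 was higher and 13 were lower, with a median of -0.58. The cystine transporter SLC7A11 stood at 5.83, 3.63, 2.25 and 3.28 CPM in WT and at 0.910, 0.722, 1.11 and 1.29 in LZK KO, TRIB3 fell from 14.2 ± 2.24 to 7.48 ± 1.30, and ATF5 from 13.8 ± 1.49 to 7.36 ± 0.641. ATF4 itself stood at 174 and 185 CPM and was not called, and the member that rose was VLDLR, a lipoprotein and reelin receptor, from 31.0 ± 0.7 to 87.3 ± 5.53.

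Of 12 p53 targets, 2 were higher and 6 lower, beside 17.1% and 16.8% of all genes. Those lower were led by the cell cycle inhibitor CDKN1A (2.48 ± 0.578 to 0.498 ± 0.332 CPM) and the death receptor TNFRSF10B (6.41 ± 1.12 to 1.79 ± 0.347). Of 15 BCL2 family genes, 1 was higher and 5 lower, beside the same shares of all genes. The 5 lower ones became 2 without LZK KO replicate 1 and 3 without LZK KO replicate 2 or without WT replicate 1, and the killers PMAIP1, BBC3 and BOK each lost the call in 3 of 17 alternative settings. BCL2L2, a protector, was also among the lower, from 19.1 ± 1.12 to 15.0 ± 1.75 CPM. The one that rose was BCL2, the protector from apoptosis, at 12.4, 11.4, 11.9 and 11.3 CPM in WT and 46.4, 47.4, 53.1 and 49.1 in LZK KO. The killer HRK, known as a JNK target in neurons, fell from 44.2, 44.5, 38.4 and 46.6 CPM to 15.1, 14.1, 17.1 and 11.9. Both genes had every LZK KO library outside the WT range.

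Metabolic lists were lower with small fold changes. Of 23 cholesterol synthesis and uptake genes 0 were higher and 17 lower, with a median of -0.43, as in INSIG1 (189 ± 21.2 to 119 ± 5.09 CPM) and the mevalonate pathway enzyme FDPS (242 ± 10.7 to 166 ± 10.6). Of 29 glycolysis and hypoxia-linked genes 2 were higher and 17 lower, with ENO1 at 370 ± 22.4 and 217 ± 8.36 CPM. Of 18 endoplasmic reticulum chaperone genes 0 were higher and 10 lower, and of 13 NRF2 and antioxidant genes 0 and 6. Of 13 mitochondrially encoded mRNAs 0 were higher and 4 lower, none of which was called with WT 1 as the only WT library, and the mitochondrial share of the libraries given above moved with them. Of 81 cytosolic ribosomal protein genes 0 were higher and 18 lower, a share of 22.2% that is close to the 16.8% of all genes.

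Cytoskeletal genes were mixed. Of 23 stathmins and microtubule-associated proteins 5 were higher and 7 lower, beside 17.1% and 16.8% of all genes. STMN2, a tubulin-binding protein of growing axons, stood at 1168 ± 96 CPM in WT and 1925 ± 266 CPM in LZK KO (log2 fold change 0.72 ± 0.12). Its call was lost with WT 1 as the only WT library, where 1 gene of the list was higher and 4 were lower, and without LZK KO replicate 3 the list had 3 higher. MAP7, which recruits kinesin to microtubules, fell from 45.0 ± 6.16 to 5.97 ± 1.88. Of 22 imprinted genes 4 were higher and 10 lower, beside the same shares of all genes. PLAGL1, a zinc finger regulator expressed from 1 parental copy, rose from 1.42 ± 0.413 to 26.5 ± 3.5, and NNAT, a small membrane proteolipid of neurons, fell from 1101 ± 65.2 to 256 ± 8.92 CPM. MEG3 was called lower on 57 counts in WT, none of them in WT 1, and 3 in LZK KO. With WT 1 as the only WT library its log2 fold change was 2.96 and not called.

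Zinc finger genes of chromosome 19 came out higher in 63 of 222 and lower in 15, with a median of 0.14, but with WT 1 as the only WT library 9 were higher and 8 lower. ZNF560 and ZNF506 were among those lower in LZK KO, ZNF506 at 39.3 ± 2.46 CPM in WT and 8.58 ± 0.654 in LZK KO. Clustered protocadherins, cell-surface proteins that give single neurons an identity code, were higher in 14 of 51 and lower in 17, with a median of 0.00. PCDHGA6 and PCDHA2 were among those that fell, PCDHA2 from 19.9 ± 0.507 to 5.68 ± 1.48 CPM, with the uncertainty that shared exons bring.

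Counts of several lists were smaller with WT 1 as the only WT library. So was the count over all genes, with 3 fewer libraries in the fit, so a smaller count there is not particular to a list. Median log2 fold changes went from -0.58 to -0.66 in the integrated stress response and from -0.22 to -0.28 among chaperones. They stayed at -0.24 in the synaptic vesicle list. Among voltage-gated channels they went from -0.34 to -0.27, and among imprinted genes from -0.23 to -0.12. Lower members went from 13 to 8 in the integrated stress response, from 15 to 8 in the synaptic vesicle list, from 17 to 10 among voltage-gated channels, from 10 to 6 among chaperones, from 10 to 6 among imprinted genes and from 18 to 10 among ribosomal proteins. Higher members went from 7 to 4 in the JNK pathway list, which also had 4 without WT replicate 2, from 6 to 3 in the excitatory and the synaptic vesicle lists and from 14 to 8 among clustered protocadherins. The inhibitory list had 2 in each direction, and the 5 lower BCL2 family genes became 3. Lists with at most 3 calls in a direction also lost some there. Mitochondrially encoded mRNAs ran from 1 to 7 lower over the fits without 1 library.

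The same 2 lines were also sequenced after vincristine, in 8 libraries that the untreated comparison does not use. There 7789 genes were called, 42.7% of those tested. Of the 3120 genes higher in untreated LZK KO, 2039 were called higher again and 98 lower, and of the 3068 lower ones 1848 were called lower again and 106 higher, beside 21.7% and 21.0% of all genes called in those directions. For at least 2-fold changes the counts were 699 of 831 and 689 of 912. All 15 of the highest and 14 of the 15 lowest genes were called the same way, with CHL1 not called. The drugged libraries also counted in the level filter by which those genes were chosen. MEIS2 had a log2 fold change of 8.59 and MAP3K13 of -1.93 under drug.

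Cholesterol and chaperone genes did not keep their direction under drug. Of the 23 cholesterol genes 13 were higher and 0 lower in LZK KO given vincristine against WT given vincristine, and of the 18 chaperone genes 12 were higher and 2 lower. INSIG1 had a log2 fold change of -0.66 ± 0.09 without drug and of 0.85 with it. Integrated stress response genes had 1 higher and 17 lower under drug, and progenitor genes 16 higher and 2 lower. The difference between the drugged and untreated contrasts was not tested for these lists.

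A further pair of lines differs by LZK on a DLK-deficient background. The double KO against DLK KO comparison, untreated, uses 8 other libraries, and 8529 genes were called there, 46.8% of those tested. MAP3K13 had a log2 fold change of -1.83 in it. Of the 3120 genes higher in LZK KO, 1335 were higher there too and 418 were lower, and of the 3068 lower ones 1221 were lower and 682 higher, beside 24.8% and 22.0% of all genes called higher and lower. So 42.8% and 39.8% of the calls recurred in direction, against 65.4% and 60.2% in the drugged libraries of the LZK KO and WT lines.

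Single genes differed in whether they recurred in the double KO. MEIS2 (5.49 ± 0.11), MEIS1 (4.47 ± 0.09), HOXB3 (3.44 ± 0.14) and ESRRG (2.38 ± 0.10) were higher in double KO than in DLK KO on the log2 scale. Of the 15 highest genes 11 were called higher again, 1 lower (HIST1H3B) and 3 not called, among them NR2F1 with a log2 fold change of -0.02. Of the 15 lowest, 7 were lower again, CAT, GALR1 and SYT10 among them, and 5 were called higher, which were ZNF300, CHL1, PCDHGA7, TRPM8 and AC020928.1. The libraries of these lines also counted in the level filter by which the genes were chosen, so the counts are a description. GALR1 lies on chromosome 18, whose median log2 fold change was -0.75 in double KO and 0.13 in DLK KO, each against WT. PCDHGA7 is a clustered protocadherin, and of 51 tested 45 were higher and 2 lower in double KO against DLK KO. The part of such shifts of neighbouring genes in the genes that recurred or turned was not tested. ZNF300 stood at 3.39 CPM in DLK KO and 51.5 CPM in double KO. Of the 20 progenitor and cell cycle genes 7 were higher and 2 lower in double KO against DLK KO, with MKI67 at 0.80 and TOP2A at 0.11 (not called) on the log2 scale. Cholesterol genes were lower again, 20 of 23 with 2 higher, and axon guidance genes higher again, 28 of 41 with 7 lower.

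**Figure D4:**
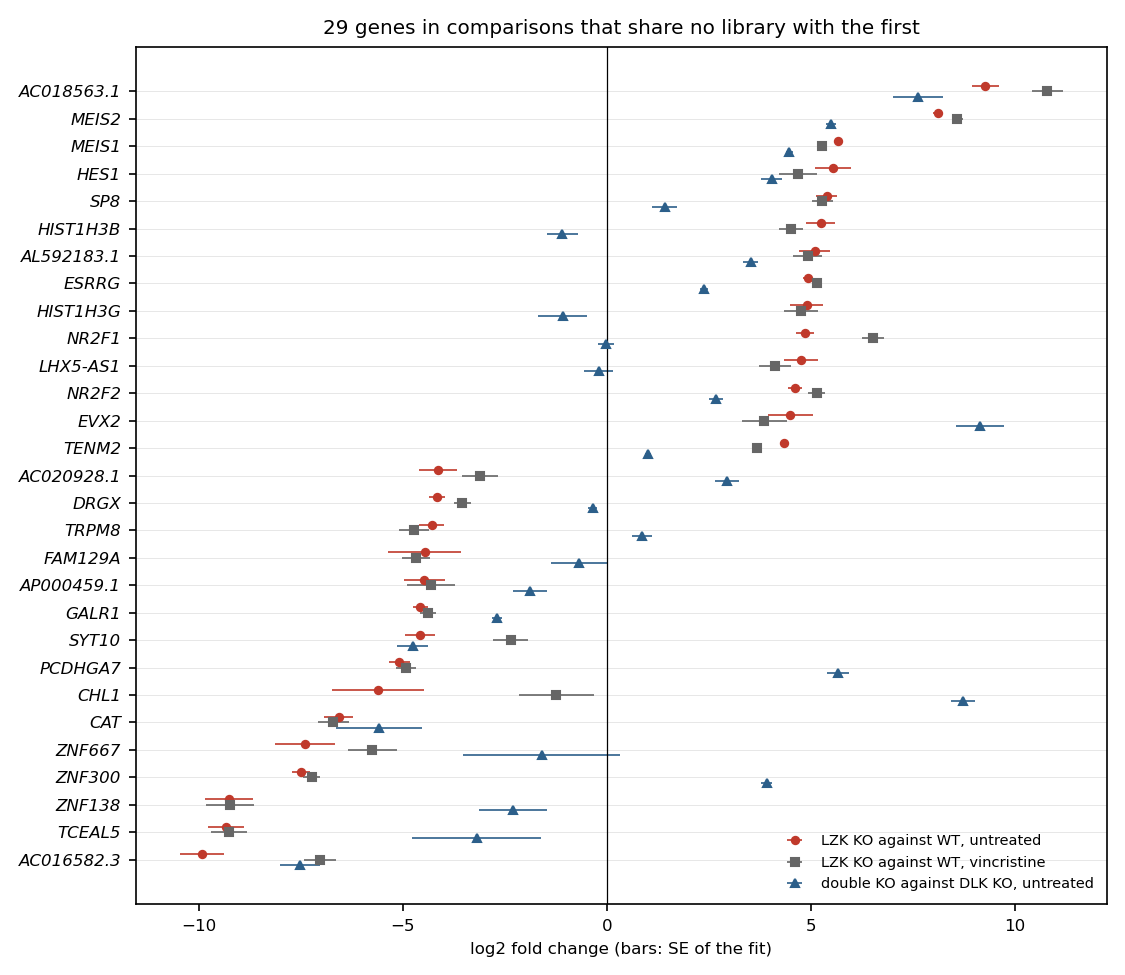
Log2 fold changes of the 15 lowest and 14 of the 15 highest genes in LZK KO against WT, untreated, beside the same genes in LZK KO against WT given vincristine and in double KO against DLK KO, untreated, with bars for the SE of the fit. Fitted values of genes with 0 to 3 counts in a group depend on the prior count. The drugged pair keeps the sign in every gene shown, and the double KO pair turns it in several, such as ZNF300 at 3.92 against -7.49.

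The LZK KO and DLK KO lines also differed from each other. In that comparison, which shares with the main one the LZK KO libraries by which the 15 highest and lowest genes were chosen, so that its values are a description, 7014 genes were called, 38.5% of those tested, with 20.4% higher in LZK KO and 18.1% lower. All 15 of the highest genes were higher in LZK KO than in DLK KO, MEIS2 by 7.68 ± 0.12 and TENM2 by 1.18 ± 0.08 on the log2 scale. Of the 15 lowest, 11 were lower in LZK KO, and TCEAL5, ZNF667, CHL1 and PCDHGA7 were not called. DLK KO against WT and double KO against WT share the WT libraries with the main comparison, so their values are only set beside it. Of the 15 highest genes, 10 were called higher in DLK KO too and 5 were not called. In double KO 14 were higher and 1 was not called. Of the 15 lowest, 11 were lower in DLK KO and 2 higher, and in double KO 10 were lower and 3 higher. In DLK KO, TCEAL5 had 0.0912 CPM, CAT 0.568 and ZNF300 3.39, all below their WT levels, while MEIS2 had 3.28 CPM and HOXB3 2.12.

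The genes that differed were spread over the genome. Chromosome medians of the log2 fold change ran from -0.10 on chromosome 22 to 0.09 on chromosomes 6 and 18. Over 17017 windows of 51 neighbouring genes, 1.30% had a median beyond 0.3 in either direction, beside 5.87% in DLK KO and 9.74% in double KO, each against the same WT libraries. The highest window, at 0.74, was the histone cluster of chromosome 6, 26020490 to 27815424, and the lowest, at -0.29, lay on chromosome 19, 44905754 to 46789043. In DLK KO against WT the highest window, at 0.43, overlapped the same cluster, at 26045411 to 27867529. Fold changes also differed by base composition. The median was 0.18 in the fifth of genes with the lowest GC content and -0.10 in the fifth with the highest, and with offsets for GC content chromosome medians ran from -0.07 to 0.05.

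**Figure D5:**
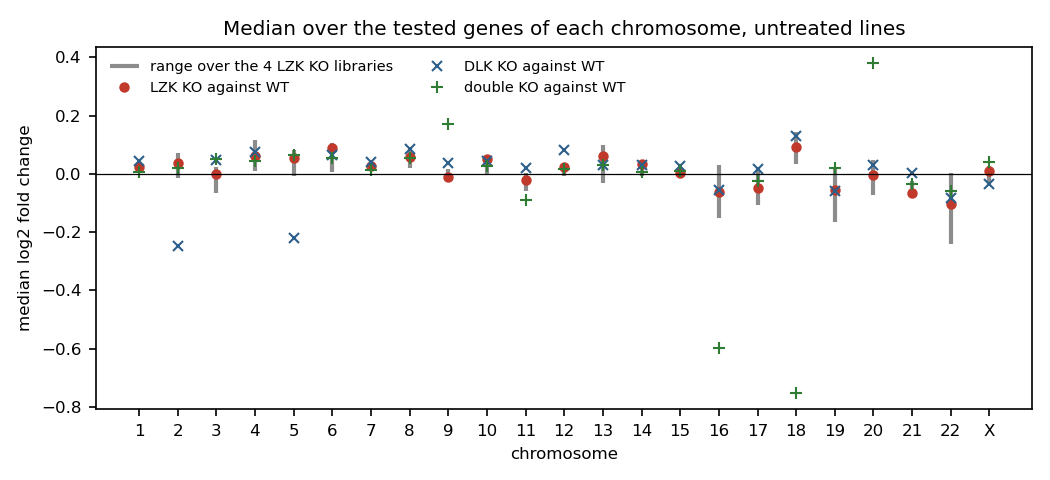
Median log2 fold change of the genes on each chromosome in LZK KO against WT, untreated, with a bar for the range over the 4 LZK KO libraries, and the medians of DLK KO and double KO against the same WT libraries. LZK KO stays between -0.10 and 0.09 on all chromosomes, whereas double KO reaches -0.75 on chromosome 18.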

How the data were processed

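RNA was measured in 32 libraries of experiment 1, of which 8 make up the comparison. The deposited table holds raw counts per gene. Per the submitters' processing notes the tools were cutadapt 3.4, STAR, and featureCounts of Subread 2.0.1, on GRCh38. The strand setting and the treatment of duplicates are not given in the sources used here. Of 58440 gene identifiers, 56992 had the same version and start in GENCODE 29, and a symbol was found for 58320. Column names gave the sample of each count column.

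The filter was filterByExpr with the groups given, the scaling TMM, and the test the robust quasi-likelihood F-test of edgeR 4.0.16 (R 4.3.3). All 32 libraries entered 1 fit with a mean for each group, so that all groups share 1 estimate of the spread. A gene was called when its 2-sided p, with Benjamini-Hochberg adjustment over all tested genes, was under 0.05. SE is that of the log2 fold change, SD that between libraries. CPM use the TMM-scaled library sizes. A floor of 3 counts over the group stands for 0 counts. The 12 pairs of replicates differed beyond counting noise (chi-square per gene 2.30 to 14.2), so no library was counted as a copy. The test was run on simulated data with known changes first.

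Named are MAP3K13 and MAP3K12, the 15 highest and 15 lowest calls at a mean log2 CPM of 1 or more without overlap of libraries, the 5 smallest p-values in each direction, up to 6 called members with the largest change from each of 31 lists, and cell type markers. The mean log2 CPM of this rule was taken over all 32 libraries of the fit. List members outside this rule were named for their known role after their values were seen. Some genes that the rule names are not reported here. Members and lists were chosen with earlier results of these data known.

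Alternatives were DESeq2 1.42.0, RLE factors, no filter, a minimum mean of 1 CPM, a replicate block, only the 2 groups compared, limma 3.58.1 voom with quality weights, and leaving out each library. Offsets for GC content (longest transcript) and WT replicate 1 as the only WT library were added after seeing the data. Figures were drawn with matplotlib 3.10.9 in Python 3.11.15.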

Additional observations from a re-analysis of the deposited data

Results flagged for a closer look

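In each group of 4 libraries the highest or lowest value was compared with the range of the group, over 36 genes and 72 groups. Chance alone marks about 1 group in 20. Libraries that stood apart were WT replicate 2 for MAP3K12, at 94.3 CPM with the others at 89.7 to 90.2, and LZK KO replicate 4 for EVX2, at 0.824 CPM with the others at 1.92 to 2.13. LZK KO replicate 3 stood at 0.0925 CPM for TCEAL5, ZNF667 and FAM129A, with the others at 0, and at 0.0925 for PCDHGA7, with the others at 0.569 to 0.601. WT replicate 4 stood at 0.0993 CPM for AC018563.1, with the others at 0. These last values are 1 count each.

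For 6 genes every library of LZK KO against WT and of double KO against DLK KO, both untreated, went opposite ways. In double KO against DLK KO the log2 fold changes were 3.92 for ZNF300, 8.72 for CHL1, 5.66 for PCDHGA7, 0.87 for TRPM8, 2.94 for AC020928.1 and -1.09 for HIST1H3B, beside -7.49, -5.61, -5.08, -4.29, -4.13 and 5.24 in LZK KO against WT. PCDHGA7 is one of 51 tested clustered protocadherins, of which 45 were higher and 2 lower in double KO against DLK KO. The fitted value of CHL1 depends on the prior count, since LZK KO had 0 counts. All 32 libraries counted in the level filter for these genes, and CHL1 passed it only through other groups. The difference between the contrasts was not tested.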

How the results depend on the processing

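The 6188 calls of LZK KO against WT became 6240 with DESeq2, 6175 with RLE factors, 6174 with no filter, 5884 at a mean of 1 CPM, 5816 with the 2 groups alone, 7521 with voom, 6324 with GC content offsets and 5451 to 6295 without 1 library. With WT replicate 1 as the only WT library the counts were 2731 for LZK KO against WT, 3038 for DLK KO and 5049 for double KO. The vincristine count was 4611 with the 2 groups alone. The replicate block gave 5982 calls. Libraries of the same number did not deviate together (r -0.02 to -0.09), so the numbers do not pair them. MAP3K12 had a log2 fold change of -0.26 with the replicate block (adjusted p = 0.0605), -0.18 with GC content offsets (0.0845), -0.24 with WT replicate 1 alone (0.407) and -0.33 to -0.24 without 1 library. The cause was not tested. Of 198 named genes, 157 kept direction and call in every setting, 40 lost the call in at least 1, and 2, MEG3 (2.96) and MEG8 (2.47), reversed with WT replicate 1 alone, uncalled. The share of calls that were higher ran from 43.7% with no filter to 51.4% with voom. With no filter the median over all genes was -0.20. Levels near 1 count per library limit the genes listed at 0.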

Other observations

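Further gene groups were chosen after their values were seen, and are given as values. The shares of all genes called were 17.1% higher and 16.8% lower. HOX genes were low in WT, and 4 of 7 tested were higher in LZK KO (HOXB3, HOXB2 and HOXA2 among them) and 1 was lower, HOXD3, which had 0 counts in LZK KO. HOXB2 stood at 5.06 CPM in WT and 30.1 CPM in LZK KO. Summed HOX counts came to 7.84 to 9.27 CPM in WT and 65.7 to 79.5 CPM in LZK KO. Of 11 TALE homeobox genes, whose proteins bind DNA together with HOX proteins, 5 were higher and 1 lower. Their sum was 1165 to 1204 CPM in WT and 1849 to 1962 CPM in LZK KO, with MEIS1 and MEIS2 as given above.

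Of 16 ionotropic glutamate receptor subunits 4 were higher and 8 lower in LZK KO, beside 17.1% and 16.8% of all genes. Their median log2 fold change was -0.40. GRIN3A fell from 101 to 32.6 CPM and GRIK1 from 24.7 to 7.66 CPM, and GRIK3 rose from 43.1 to 91.7 CPM. Of 13 GABA-A receptor subunits 1 was higher and 5 lower, beside the same shares of all genes. GABRA5 fell from 5.41 to 1.23 CPM.

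Of 53 histone genes named HIST, 41 were higher and 2 lower in LZK KO, with a median log2 fold change of 0.95 and of -0.36 in double KO against DLK KO. The summed level of these histone genes was 608 to 738 CPM in WT and 1004 to 1160 CPM in LZK KO. Small nuclear RNA genes were higher in 45 of 129 and lower in 2, beside 17.1% and 16.8% of all genes. Their sums were 492 to 860 CPM in WT and 829 to 1995 CPM in LZK KO. Small nucleolar RNA genes were higher in 31 of 152 and lower in 0. The share higher, 20.4%, is close to the 17.1% of all genes, whereas 0 were lower beside 16.8%. Median log2 fold changes were 1.08 for small nuclear and 0.70 for small nucleolar RNA genes. Small nucleolar RNA genes summed to 2563 to 4750 CPM in WT and 4479 to 7191 CPM in LZK KO. For both kinds the sums of the 2 lines overlapped. Both kinds of small RNA and many histone mRNAs lack a poly(A) tail, and the libraries were poly(A) selected. The part of library preparation in these values was not tested.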
